A study of Homo sapiens with 5 samples.

Results

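The genes described here are 45 genes of the ATF4 stress response and of amino acid supply. They were chosen by name as known parts or targets of that response, with earlier results of these data known. They were found in the count tables by gene symbol, taking the identifier with most reads. All 45 were present among 57905 genes with counts, and all 45 passed the filter on low counts that left 16471 genes for testing. They comprise 3 regulators of eIF2α phosphorylation, 7 transcription factors, 5 stress effectors or secreted factors, 7 amino acid transporters, 11 genes of tRNA charging and tRNA export, 5 enzymes of serine synthesis and of folate one-carbon metabolism, and 7 other amino acid enzymes.

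Cells that run short of an amino acid, or that accumulate unfolded protein in the endoplasmic reticulum, phosphorylate the translation factor eIF2 on its α subunit through the kinases GCN2 (gene EIF2AK4) and PERK (gene EIF2AK3), among others. General translation then slows while the mRNA of the transcription factor ATF4 is translated more, and ATF4, bound to DNA together with C/EBP proteins, raises the transcription of genes for amino acid import, amino acid synthesis and tRNA charging. Prolonged signalling adds CHOP (gene DDIT3), TRIB3, CHAC1 and PPP1R15A, of which the last encodes a phosphatase subunit that reverses eIF2α phosphorylation.

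Total RNA was sequenced from SVG-10B1, an established line of human fetal glial cells made with SV40 T antigen, grown in DMEM with fetal calf serum. The wild-type line, which the labels number clone 1, gave 2 libraries. Derivatives with the genotype IDH1 R132H/WT, in which 1 allele encodes the mutant cytosolic isocitrate dehydrogenase known from glioma, gave 1 library of clone 2 and 2 libraries of clone 6. The wild type is a single line and each edited line a single clone. Differences between lines and the effect of the allele therefore cannot be told apart, also where clones 2 and 6 agree. No label says whether replicates were separate cultures, and p-values therefore measure the spread between these libraries, which may be technical.

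Values are in CPM, reads of a gene scaled to a common library size corrected by TMM, and 5 values in a row always stand for wild-type replicates 1 and 2, clone 2, and clone 6 replicates 1 and 2. Libraries held 13572114 to 21881726 reads assigned to genes, so that 3 reads equalled 0.139 to 0.230 CPM. The share of ribosomal RNA genes among reads ranged from 0.417 to 9.79%, with 9.79% in clone 6 replicate 1 and 0.631% in clone 6 replicate 2. Clone 6 replicate 1 lay closer to clone 2 than to its own replicate. Of all tested genes, 11.5% differed at least 1.5-fold between clone 2 and clone 6 replicate 1, whereas between the clone 6 libraries 10.1% were at least 1.5-fold higher in replicate 2 and 16.4% at least 1.5-fold higher in replicate 1. For the astroglial label, the sum of 12 astrocyte markers was 304, 289, 555, 540 and 596 CPM, with GJA1 the most abundant in each. GJA1 and CLU were higher in every edited library than in the wild type, whereas GLUL, SOX9 and NFIA were lower in every one. GFAP had 5 to 9 reads per library and AQP4 had 0 in every library. In bulk RNA, fewer cells of a type and less RNA per cell cannot be told apart.

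Promoter sequence is shown for members in which the composite C/EBP-ATF element, the DNA motif through which ATF4 acts with a C/EBP partner, was found by letters. The element was searched as TGATGNAA on both strands in RefSeq windows of 300 bases, 250 before and 50 after each annotated start (GRCh38.p14, whereas the counts are on hg19). Of 35116 such windows for all genes, 3.62% held it. The tables matched 39 of the 45 members, with 65 windows, and 17 windows (26.2%) of 17 members held it. A match is a description of these letters and shows no binding, and a window without a match says only that these letters are not in it. The first pair below gives the 250 bases before the start of CHAC1, chr15:40953221-40953470 on the plus strand, and of ASNS, chr7:97872409-97872658 on the minus strand, since these encode a glutathione-degrading enzyme and the asparagine synthetase, both well-known targets of ATF4. The motif is in capitals and every sequence is written 5′ to 3′ on the gene's strand.
CHAC1: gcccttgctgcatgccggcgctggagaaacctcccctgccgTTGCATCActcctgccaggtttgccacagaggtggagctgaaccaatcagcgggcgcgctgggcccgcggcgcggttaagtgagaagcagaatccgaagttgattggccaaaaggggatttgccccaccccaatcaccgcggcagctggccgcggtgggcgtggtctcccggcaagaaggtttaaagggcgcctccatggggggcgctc
ASNS: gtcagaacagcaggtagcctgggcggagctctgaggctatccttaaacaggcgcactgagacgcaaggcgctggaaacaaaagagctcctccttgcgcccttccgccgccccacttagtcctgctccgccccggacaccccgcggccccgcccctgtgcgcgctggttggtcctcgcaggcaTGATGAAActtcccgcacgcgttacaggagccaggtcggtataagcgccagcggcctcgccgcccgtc

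In 6 other members the motif lay wholly before the start with its 20-base flanks, and these short windows allow the letters around it to be compared. They are ATF3 at chr1:212565196-212565243 (plus strand), CEBPG at chr19:33374051-33374098 (plus strand), AARS (RefSeq name AARS1) at chr16:70289666-70289713 (minus strand), GARS (RefSeq name GARS1) at chr7:30594825-30594872 (plus strand), SLC1A5 at chr19:46784884-46784931 (minus strand) and BCAT1 at chr12:24949122-24949169 (minus strand). Capitals again mark the motif, or its reverse complement where it reads on the other strand.
ATF3: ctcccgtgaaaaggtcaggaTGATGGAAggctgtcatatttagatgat
CEBPG: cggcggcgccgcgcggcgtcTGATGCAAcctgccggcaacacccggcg
AARS1: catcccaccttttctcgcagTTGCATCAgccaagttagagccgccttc
GARS1: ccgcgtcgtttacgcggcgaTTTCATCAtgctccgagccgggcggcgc
SLC1A5: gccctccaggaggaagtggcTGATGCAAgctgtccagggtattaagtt
BCAT1: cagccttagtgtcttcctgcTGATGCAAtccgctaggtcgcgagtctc
The motif began 191 bases before the start in ATF3, 187 in AARS and 97 in SLC1A5, against 48 in BCAT1, 42 in CEBPG and 33 in GARS. CEBPG, SLC1A5 and BCAT1 shared the letters TGATGCAA, AARS carried the same letters on the other strand, and ATF3 and GARS had another base at the free position.

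The members stood apart in 1 library, clone 6 replicate 2. There 43 of 45 members (95.6%) had their highest level of the 5 libraries, against 28.3% of all tested genes. In 36 of 45 (80% of the members) the level was at least 1.5-fold above each of the other 4 libraries, against 3.37% of all tested genes, and in 21 of 45 (46.7%) it was at least 2-fold above, against 1.2%. No member lay 1.5-fold below the other 4, which 6.6% of all genes did. The median ratio of clone 6 replicate 2 to the mean of the other 4 libraries was 2.26 over the members and 0.976 over all genes with a value. This is 1 library against 4, so the ratios are a description with no test. Members and library were both chosen with earlier results of these data known, so these shares are no independent support. NUPR1 is among the members counted, although it did not pass the filter on low counts when clone 6 replicate 2 was left out. Clone 6 replicate 1, which has the same labelled genotype and clone, did not share the pattern: its median ratio to the wild-type mean was 1.07 and that of clone 2 was 1.12, whereas clone 6 replicate 2 had 2.39.

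**Figure D1:**
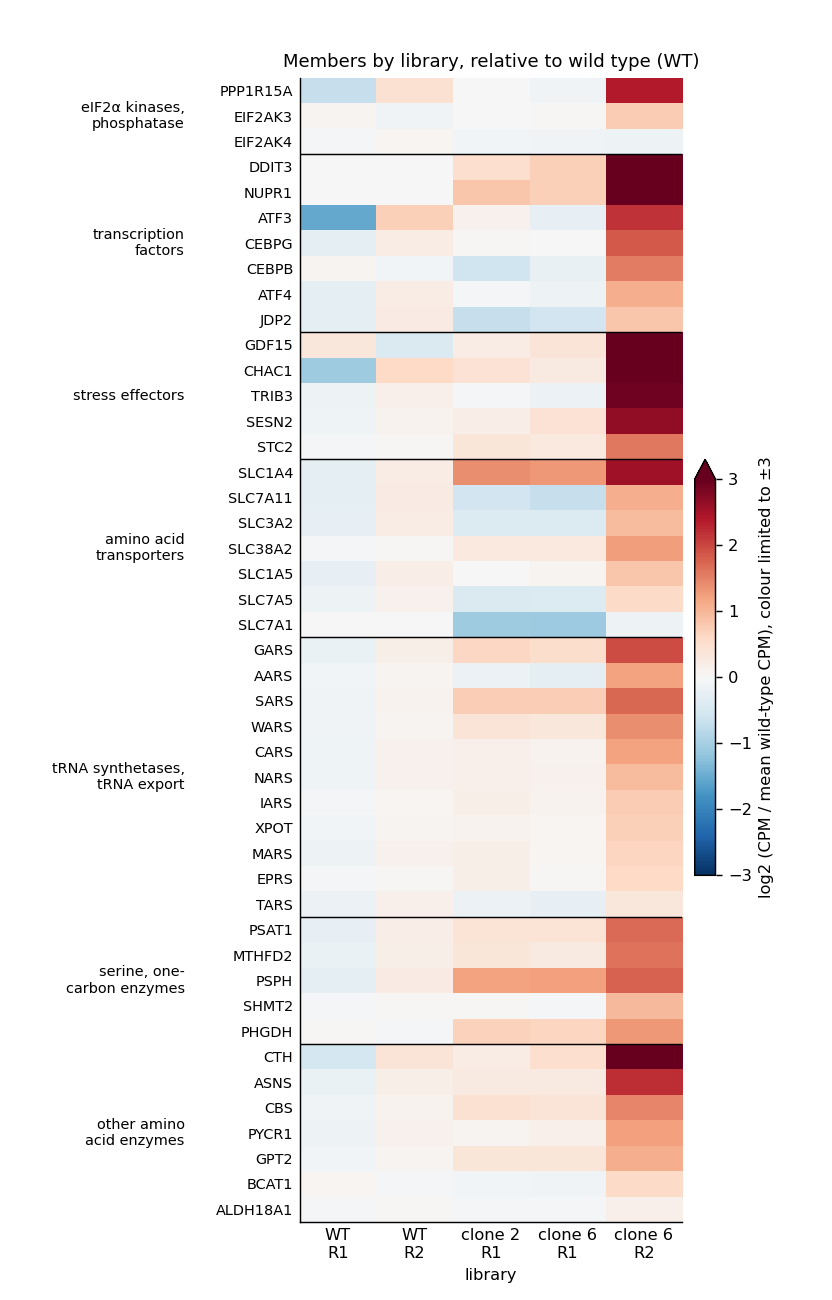
Heat map of the 45 members (rows, grouped by role) in the 5 libraries (columns), coloured by log2 of the CPM over the mean of the wild-type libraries. Clone 6 replicate 2 is the column with raised values in nearly every row, with EIF2AK4 and SLC7A1 as the members not at their highest there.

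Among other readings, mitochondrial and fibroblast genes were lower in clone 6 replicate 2, whereas neuron and endothelial marker sums divided by genotype. Mitochondrially encoded genes took 0.185% of the reads of clone 6 replicate 2 against 0.227 to 0.302% in the other libraries. The summed level of 8 fibroblast and pericyte markers there was 552 CPM against 1703 to 1998 CPM. The collagen gene COL1A1 made up most of each sum (1894, 1691, 1607, 1645 and 512 CPM). Of the 6 tested, 4 were at least 1.5-fold below the other 4 libraries. Of these, COL1A2 had 0 to 9 reads per library, and KCNJ8 had 515, 502, 13, 10 and 6 reads. RGS5 was higher in every edited library than in the wild type (6.56, 5.83, 65.1, 64.9 and 26.0 CPM). ABCC9 had 204, 264, 1, 1 and 2 reads. Microglia markers summed to 0.938 to 2.59 CPM over the libraries, with CX3CR1 at 0 in each, and oligodendrocyte markers to 8.86 to 10.9 CPM, with MOG, MAG, OLIG1 and OLIG2 at 0 in each. Neuron markers summed to 22.6 to 24.5 CPM in the 3 edited libraries and 10.8 to 11.2 CPM in the wild type, with STMN2 at 0. Within that sum GAD1 (5.31, 5.06, 12.2, 11.9 and 13.8 CPM) and INA (0.462, 1.16, 5.55, 7.35 and 6.94 CPM) were higher in every edited library, TUBB3 was not (3.42, 3.63, 3.55, 3.98 and 1.56 CPM), and MAP2 and SYT1 had 0 to 9 reads per library. Endothelial markers summed to 2.31 to 2.90 CPM in the edited libraries and 20.6 to 20.8 CPM in the wild type, where TIE1 made up most of the sum (19.3, 18.9, 1.29, 1.23 and 1.13 CPM), whereas VWF had 0.324, 0.770, 0.968, 0.689 and 0.813 CPM. The part of these differences in the members' levels was not tested.

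Among the regulators of eIF2α, the phosphatase subunit gene PPP1R15A, also known as GADD34, had 53.01, 119, 86.8, 79.6 and 448 CPM. Its level in clone 6 replicate 2 was 5.30 times the mean of the other 4 libraries, and wild-type replicate 2 was the next highest. EIF2AK3, which encodes the endoplasmic reticulum kinase PERK, had 18.7, 16.4, 17.4, 18 and 29.7 CPM, with the highest value again in clone 6 replicate 2, 1.59 times the next. EIF2AK4 encodes GCN2, the kinase that senses uncharged tRNA. It had 122, 131, 120.4, 117 and 114 CPM and was the single member of 45 with its lowest level in clone 6 replicate 2, as 28.1% of all genes had, although the 5 libraries lay close together.

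ATF4 (ENSG00000128272) itself had 243, 339, 281, 260.4 and 619 CPM. Clone 6 replicate 2 was 2.20 times the mean of the others and 1.83 times wild-type replicate 2, the next highest library. Against clone 6 replicate 1 the ratio was 2.38-fold (95% counting interval 2.29 to 2.47); such intervals cover counting error only. ATF4 is controlled mainly at translation, which counts of RNA do not measure.

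DDIT3, which encodes the pro-apoptotic factor CHOP, showed the widest gap among the members. The reads were 112, 94, 114, 110 and 2560, which gave 5.18, 5.17, 7.35, 8.42 and 160.1 CPM. The other 4 libraries lay between 5.17 and 8.42 CPM, and clone 6 replicate 2 was 19 times the highest of them. By its ratio to the mean of the other 4 libraries, 24.5, DDIT3 ranked 3 among the 16471 tested genes. In the GENCODE 29 annotation, 27.2% of the exonic bases of DDIT3 overlap MARS on the other strand, and the sources do not state whether counting used the strand. MARS, which encodes methionyl-tRNA synthetase, had 235, 285, 292, 269 and 403 CPM, a far smaller relative difference. Other members with over 10% of their exonic bases shared with another gene were ASNS (44.6%, with a transcript on the same strand), MTHFD2 (27.2%, SLC4A5), SLC1A5 (23.4%), PYCR1 (15.6 and 14.1%), EIF2AK3 (14.4%) and CEBPB (11.8%), and reads in the shared bases cannot be assigned from the counts.

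The remaining transcription factors also had their highest level in clone 6 replicate 2. NUPR1, a small stress-induced chromatin protein, rested on few reads, 7, 6, 9, 7 and 90. Its levels of 0.324, 0.330, 0.581, 0.536 and 5.63 CPM put clone 6 replicate 2 at 10.5-fold (95% counting interval 4.89 to 26.9) over clone 6 replicate 1, a wide counting interval. ATF3, a stress-induced repressor and activator of the ATF/CREB family, had 3.93, 18.8, 12.4, 9.57 and 51.5 CPM. In ATF3 the wild-type pair differed as well, with replicate 2 at 4.79 times replicate 1. CEBPB, a C/EBP partner of ATF4, had 63.4, 56.1, 39.4, 51.2 and 174 CPM, and clone 2 and clone 6 replicate 1 lay below the wild-type pair. CEBPG, another such partner, had 42.8, 60.2, 53.2, 51.9 and 184 CPM, a ratio of 3.55 to the mean of the other 4. JDP2, an AP-1 family repressor, had a smaller ratio of 2.17, and over the 7 factors the ratios ranged from 2.17 to 24.5.

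All 5 stress effectors and secreted factors were at least 2-fold above each other library, with a median ratio of 7.92 to the mean of the other 4. TRIB3, a pseudokinase that restrains ATF4 signalling, had 48.8, 60.4, 52.4, 48.02 and 415 CPM. Its other 4 values spanned a narrow range, so clone 6 replicate 2 was 6.87 times the next library. CHAC1, which degrades glutathione and whose promoter is printed above, had 3.70, 11.9, 10.6, 9.42 and 70.6 CPM. Here wild-type replicate 1 was the lowest library and the other 3 lay close together. SESN2, a leucine sensor that restrains the growth kinase complex mTORC1, had 12.7, 14.9, 15.8, 18.5 and 86.9 CPM. GDF15, a secreted cytokine of stressed cells, had 17.1, 10.01, 15.9, 17.8 and 138 CPM. STC2, a secreted glycoprotein, had 432, 453, 568, 546 and 1319 CPM, the smallest ratio of these genes (2.64), and in STC2 and SESN2 all 3 edited libraries were above both wild-type libraries.

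**Figure D2:**
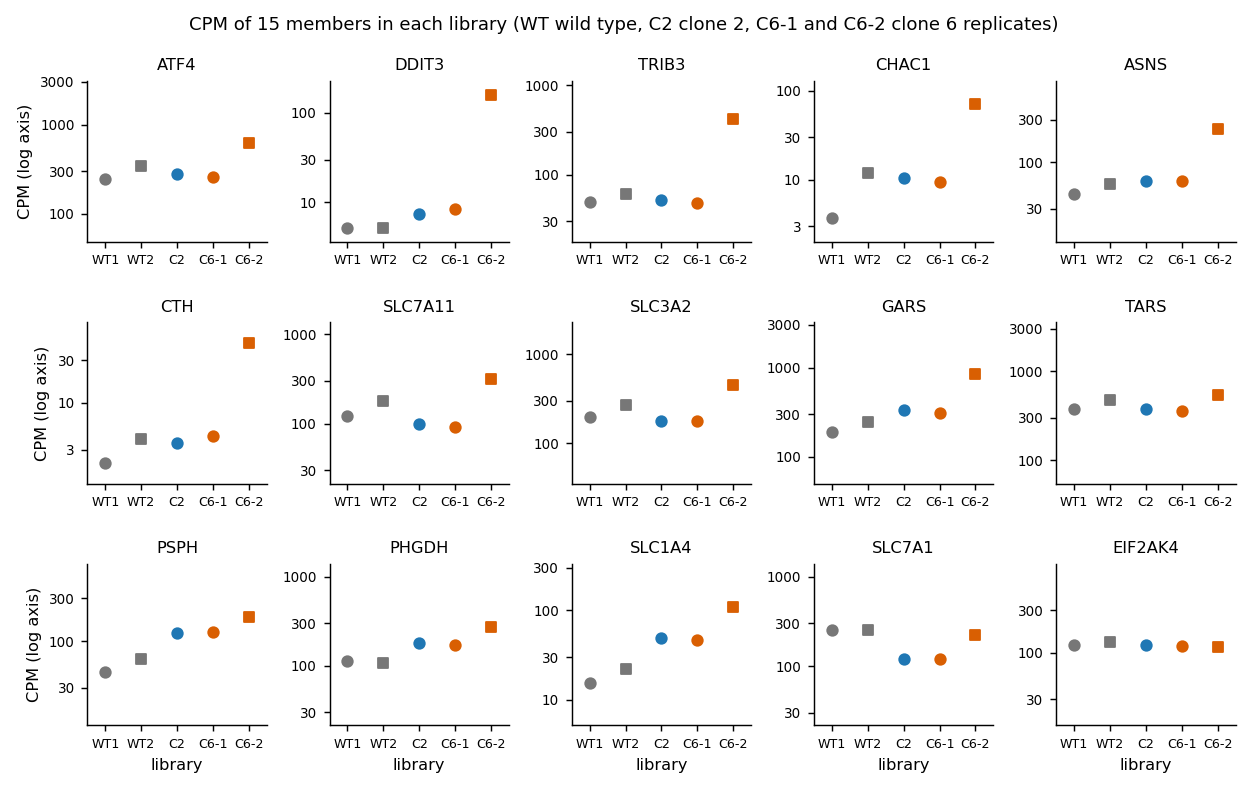
Levels of 15 members in each library (CPM, log axis with the same span in every panel); circles are replicate 1 and squares replicate 2. In DDIT3 the clone 6 replicate 2 square is at 160.1 CPM and the other points at 8.42 CPM or lower, whereas in SLC1A4, PHGDH and PSPH all edited points lie above the wild-type pair.

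Of the 7 amino acid transporters, 6 were highest in clone 6 replicate 2 and 5 were at least 1.5-fold above each other library. SLC1A4, an exchanger of alanine, serine and cysteine, had 15.5, 21.95, 49.5, 46.2 and 109 CPM. It showed a level in clone 2 and clone 6 replicate 1 above both wild-type libraries, and a further step up in clone 6 replicate 2. The cystine and glutamate exchanger is formed by SLC7A11 and its chaperone SLC3A2, which also pairs with the leucine carrier SLC7A5. SLC7A11 had 121, 176, 99.5, 91.4 and 315 CPM. SLC3A2 had 198, 272, 177, 177 and 455 CPM. SLC7A5 had 325, 395, 266, 269.8 and 534 CPM. In all 3 genes clone 2 and clone 6 replicate 1 were below both wild-type libraries and clone 6 replicate 2 was above them. SLC7A1, the carrier of cationic amino acids, was the transporter with another order, 252, 251, 121, 119 and 225 CPM, with all edited libraries below the wild type and clone 6 replicate 2 nearest to it. The glutamine carriers SLC38A2 and SLC1A5 had ratios to the mean of the other 4 libraries of 2.15 and 1.78.

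The 11 genes of tRNA charging and export all had their highest level in clone 6 replicate 2, but by less than the stress effectors: the median ratio to the mean of the other 4 was 1.83, with a range of 1.35 to 3.14. Of these, 8 were at least 1.5-fold above each other library. GARS, the glycyl-tRNA synthetase, had 189, 247, 336, 313 and 850.1 CPM. AARS, for alanine, had 174, 195, 163, 149.8 and 424 CPM, with the other 4 libraries between 149.8 and 195 CPM. CARS, for cysteine, had 55.6, 66.5, 68.3, 65.4 and 142 CPM, and again only clone 6 replicate 2 lay outside a narrow range. SARS, for serine, differed in form: with 142, 165, 258, 257 and 510.0 CPM, clone 2 and clone 6 replicate 1 were nearly equal and above the wild-type pair. Ratios to the mean of the other 4 were 2.29 for WARS (tryptophan), 1.83 for NARS (asparagine), 1.61 for IARS (isoleucine) and 1.59 for XPOT, the export receptor of tRNAs. EPRS (glutamate and proline), MARS (methionine) and TARS (threonine) had 1.36, 1.38 and 1.13 times the next highest library and so stayed under the 1.5-fold bound.

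All 5 serine and one-carbon enzymes were highest in clone 6 replicate 2, with a median ratio of 2.07. PHGDH, PSAT1 and PSPH catalyse the successive steps from 3-phosphoglycerate to serine. PHGDH had 114, 108, 178, 172 and 273 CPM. PSAT1 had 119, 164, 188, 189 and 457 CPM. PSPH had 44.4, 63.7, 124, 126 and 185 CPM. In each of the 3 genes all edited libraries were above both wild-type libraries, and clone 2 and clone 6 replicate 1 were nearly level. MTHFD2, the mitochondrial folate dehydrogenase, had 147, 192, 217, 204 and 524 CPM, again with all edited libraries above both wild-type libraries. SHMT2, which splits serine in mitochondria, had 205, 217, 216, 205 and 416 CPM, with clone 2 and clone 6 replicate 1 level with the wild type.

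Among the other amino acid enzymes, CTH and ASNS were raised most in clone 6 replicate 2. CTH, the cystathionine γ-lyase that makes cysteine, had 46, 72, 55, 56 and 752 reads, or 2.13, 3.96, 3.55, 4.29 and 47.03 CPM. Its ratio to the next highest library was 10.97. ASNS had 44.5, 57.1, 61.03, 61.04 and 237 CPM, with the edited clone 2 and clone 6 replicate 1 libraries just above wild-type replicate 2. CBS, the enzyme upstream of CTH, had 47.6, 55.1, 70.5, 66.9 and 142 CPM, and PYCR1, which makes proline in mitochondria, had 30.2, 36.9, 35.4, 37.5 and 79.2 CPM. Both were at least 2-fold above each other library, whereas GPT2 (mitochondrial alanine aminotransferase) was 1.65 times the next. The branched-chain aminotransferase gene BCAT1 and the proline pathway gene ALDH18A1 moved least, at 1.42 and 1.09 times the next highest library.

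The pair of clone 6 libraries therefore differed over nearly the whole set. Replicate 2 was at least 1.5-fold above replicate 1 in 39 of 45 members (86.7%), against 10.1% of all tested genes, and the reverse held for 0 members. Clone 2 and clone 6 replicate 1 never differed 1.5-fold in a member; the ratio of clone 6 replicate 1 to clone 2 lay between 0.773 and 1.30. The wild-type pair leaned the same way with small differences, since replicate 2 was above replicate 1 in 38 of 45 members (84.4%), against 50.1% of all genes, with a median ratio of 1.19. It was at least 1.5-fold higher in 4 members, ATF3 (4.79, 95% counting interval 3.77 to 6.15), CHAC1 (3.21, 2.48 to 4.21), PPP1R15A (2.24) and CTH (1.86), against 5.85% of all genes. GDF15 was the member that went the other way by this bound, at 0.586, against 6.9% of all genes. Wild-type replicate 1 had the higher ribosomal RNA share of its pair, 7.23 against 2.24%, as clone 6 replicate 1 had of its own, and the part of this in the members' levels was not tested.

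**Figure D3:**
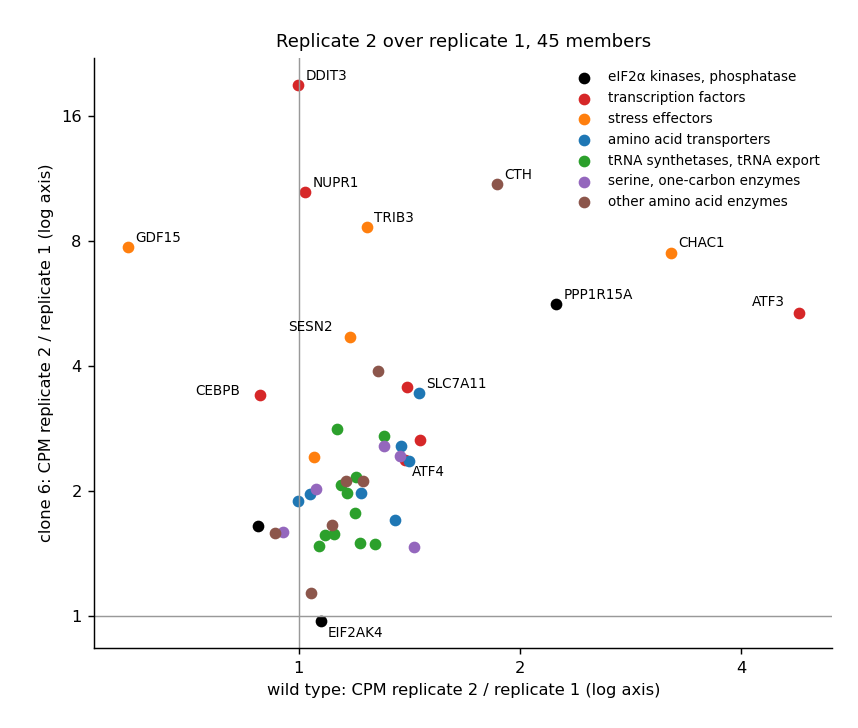
Each point is a member, placed by the ratio of replicate 2 to replicate 1 in the wild type (x axis) and in clone 6 (y axis), both on log axes. All members but EIF2AK4 lie above 1 on the y axis and 38 of 45 lie above 1 on the x axis, where most are close to 1.

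The 3 edited libraries were then compared with the 2 wild-type libraries by edgeR's quasi-likelihood test, which asks whether the genotypes differ beyond the spread between libraries. At a Benjamini-Hochberg adjusted p below 0.05, 3 of 45 members (6.67%) were higher in the edited libraries, against 7.64% of all tested genes, and 0 were lower, against 9.49%. DESeq2 called 6 of 45 members higher (13.3%), against 8.77% of all genes, and 0 lower, against 10.7%. The share called by edgeR is near that of all genes and is no result about the set. At an unadjusted p below 0.05, 10 of 45 members passed in either direction, against 32.8% of all genes. The median log2 fold change was 0.64 over the members and 0.02 over all genes.

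The called members were PSPH, PHGDH and SLC1A4. PSPH (ENSG00000146733) had 54.03 ± 13.6 CPM (SD, n = 2) in the wild type and 145 ± 34.7 CPM (SD, n = 3) in the edited libraries, which is a rise of 1.43 on the log2 scale (SE 0.24, edgeR adjusted p = 0.00944). PHGDH (ENSG00000092621) rose from 111 ± 3.93 CPM (SD, n = 2) to 208 ± 56.8 CPM (SD, n = 3), by 0.91 on the log2 scale (SE 0.21, edgeR adjusted p = 0.0294). SLC1A4 (ENSG00000115902) rose from 18.7 ± 4.54 CPM (SD, n = 2) to 68.3 ± 35.5 CPM (SD, n = 3), by 1.87 on the log2 scale (SE 0.41, edgeR adjusted p = 0.0257). In all 3 genes each edited library was above both wild-type libraries, as in 18 of 45 members (40%) and 26.1% of all tested genes. The opposite order, all edited libraries below both wild-type libraries, held for 2 members, SLC7A1 and EIF2AK4, against 25.3% of all genes. The calls of PSPH, PHGDH and SLC1A4 were each lost without wild-type replicate 1, at adjusted p-values from edgeR of 0.102 for PSPH, 0.185 for PHGDH and 0.211 for SLC1A4, and those of PHGDH (0.192) and SLC1A4 (0.126) also without wild-type replicate 2.

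DDIT3, ATF4 and ASNS, raised in clone 6 replicate 2, did not pass, and their edited libraries spread widely. DDIT3 (ENSG00000175197) had a log2 fold change of 3.51 with an SE of 1.47 (edgeR adjusted p = 0.152), and ATF4 one of 0.41 with an SE of 0.38 (edgeR adjusted p = 0.506). For ASNS (ENSG00000070669) the log2 fold change was 1.24 and the edgeR adjusted p was 0.22. SARS, with 1.15 (SE 0.32), fell just outside the threshold at an edgeR adjusted p of 0.0511.

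Without clone 6 replicate 2 the comparison of the other 2 edited libraries with the wild type gave a different picture. There 13 of the 44 members that passed the filter (29.5%) were called higher by edgeR, against 17.2% of all genes tested, and 7 (15.9%) lower, against 19.7%. NUPR1 was the member that no longer passed the filter. Higher members were the serine genes PSPH (log2 fold change 1.21), PHGDH (0.65) and PSAT1 (0.40), SLC1A4 (1.35), the synthetase genes SARS (0.73), GARS (0.56) and WARS (0.35), CBS (0.41), GPT2 (0.35), STC2 (0.32), MTHFD2 (0.30), SLC38A2 (0.28) and DDIT3 (0.59). Lower members were the transporter genes SLC7A1 (-1.08), SLC7A11 (-0.65), SLC7A5 (-0.44) and SLC3A2 (-0.42), the factors JDP2 (-0.63) and CEBPB (-0.42), and AARS (-0.25). ATF4 had -0.12 and did not pass (edgeR adjusted p = 0.504). This fit takes clone 2 and clone 6 replicate 1, which are different clones, as 1 group. The library left out and the members were chosen with earlier results of these data known, so these shares are no independent support. The cause of the change in the number of calls was not tested.

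Each clone was also set against the wild type in a fit with 3 groups. Clone 2, with 1 library, had 0 members called in either direction by edgeR, against 1.65% of all genes called higher and 2.16% lower, and 4 of 45 had an unadjusted p below 0.05, against 18.7%. By DESeq2, 2 of 45 members (4.44%) were higher in clone 2, against 2.66% of all genes, and 1 (2.22%) was lower, against 3.64%. In clone 6 against wild type 4 of 45 members (8.89%) were higher, against 3.87% of all genes, and 0 were lower, against 5.11%. The counts by DESeq2 were 9 of 45 higher (20%), against 4.71% of all genes, and 0 lower, against 5.65%. The 4 called by edgeR were PSPH (log2 fold change 1.53, SE 0.24, edgeR adjusted p = 0.0165), SLC1A4 (2.06, SE 0.40, adjusted p = 0.0296), PHGDH (1.01, SE 0.22, adjusted p = 0.0404) and SARS (1.32, SE 0.31, adjusted p = 0.0468). All 4 calls were lost without wild-type replicate 1, those of PHGDH and SARS also without wild-type replicate 2, and that of SARS also without clone 2 and with a filter of 1 CPM (edgeR adjusted p = 0.0536). At an unadjusted p below 0.05, 21 of 45 members (46.7%) passed, against 26.5% of all genes. These comparisons share the wild-type libraries and are not independent of each other.

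Clone 6 against clone 2 gave 0 called genes of 16471 by edgeR, and at an unadjusted p below 0.05 it gave 114 genes (0.692%) and 0 members; by DESeq2 it gave 2 genes. The median log2 fold change of the members was 0.64, while the median log2 ratio of clone 6 replicate 1 alone to clone 2 was -0.04. When clone 6 was represented by replicate 2 alone, 38 of 45 members (84.4%) were called higher than clone 2, against 3.1% of all genes, and 0 were lower, against 2.22%. That fit has 1 library on each side and takes its spread from the wild-type pair. It therefore compares these libraries and assumes that they vary as that pair did. Replicate 2 and the members were both chosen with earlier results of these data known, so these shares are no independent support. They describe replicate 2 and not clone 6, for which both libraries together gave 0 called genes.

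Lists of related genes, chosen like the members with earlier results of these data known, were described in the same way. Of 14 other ATF4 targets, 8 were at least 1.5-fold above each other library in clone 6 replicate 2, against 3.37% of all tested genes. The median ratio of these targets to the mean of the other 4 libraries was 1.74. INHBE, a secreted activin subunit, had 1.53, 2.26, 2.19, 2.45 and 12.9 CPM, and the glycine transporter SLC6A9 had 4.07, 5.72, 8.77, 9.19 and 42.3 CPM. ADM2, a secreted peptide, and NFIL3, a basic leucine zipper repressor, had ratios of 5.20 and 3.24. In the genotype comparison 0 of the 14 were higher and 1 was lower: ASS1, the argininosuccinate synthetase, had a log2 fold change of -1.12 (edgeR adjusted p = 0.00927).

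Genes of the same functions outside the members were also chosen with earlier results known, so their contrast with the members is a description only. In clone 6 replicate 2 these genes stayed closer to the other libraries. Even so, 11 of 13 other genes of cytosolic tRNA charging had their highest level in clone 6 replicate 2, against 28.3% of all genes. The same held for 8 of 17 mitochondrial synthetase genes. Of these 13 genes 0 were 1.5-fold above each other library (median ratio 1.24), with YARS at 1.48 times the next. Of the 17 also 0 were (1.10). Of 15 other serine and one-carbon genes 1 was above, ALDH1L2, a mitochondrial folate enzyme, with 37.5, 35.9, 36.6, 35.5 and 83.3 CPM. Of 11 other amino acid transporters it was SLC38A1, a glutamine carrier, with 226, 270.2, 269, 265 and 545 CPM, and of 14 other amino acid enzymes it was GOT1, the cytosolic aspartate aminotransferase, with 46.7, 51.6, 61.9, 61.4 and 129 CPM. Of 14 genes of eIF2 and its regulation it was DNAJC3, an inhibitor of eIF2α kinases, with 93.1, 96.4, 49.5, 47.1 and 157 CPM.

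Several of these lists held genes called in the genotype comparison by edgeR. EIF2AK1, EIF2S1 and EIF2B3 were higher among the eIF2 genes, with log2 fold changes of 0.37, 0.45 and 0.63. AIMP2, a scaffold of the synthetase complex, was higher by 0.57, the mitochondrial synthetase genes WARS2 and RARS2 by 0.82 and 0.51, and VARS2 had -0.48. The glutamate transporter SLC1A1, at 2.52, had the widest rise of these transporters, while SLC43A2, a leucine carrier, had -0.65. Among the other enzymes 4 were higher, of which PRODH, PYCRL and BCAT2 had 1.59, 0.75 and 0.62, and glutamine synthetase, GLUL, had -1.05 and was the one lower. In SLC1A1, BCAT2, PRODH, RARS2 and EIF2AK1 clone 6 replicate 2 was not the highest library.

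The ATF6 and XBP1 branches of the endoplasmic reticulum stress response induce chaperones and degradation factors. Activity of these branches was not measured. Of 18 genes listed under them, 12 were at least 1.5-fold above each other library in clone 6 replicate 2, against 3.37% of all tested genes. EDEM1, CALR, HYOU1, SYVN1, ERN1 and ATF6 stayed under that bound, with ERN1 at 0.970 and ATF6 at 1.19 times the highest other library. The median ratio of the 18 genes to the mean of the other 4 libraries was 2.25, and 0 were called in the genotype comparison. HSPA5, the chaperone BiP, had 439.7, 483, 330.4, 306 and 3224 CPM. HERPUD1, a degradation factor of the endoplasmic reticulum, had 40.4, 42.9, 36.6, 36.7 and 465 CPM. DNAJB9 and SDF2L1, cofactors of BiP, had ratios of 5.45 and 5.24. In HSPA5 and SDF2L1 clone 2 and clone 6 replicate 1 were below the wild-type pair, as in SLC7A11 and CEBPB among the members.

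**Figure D4:**
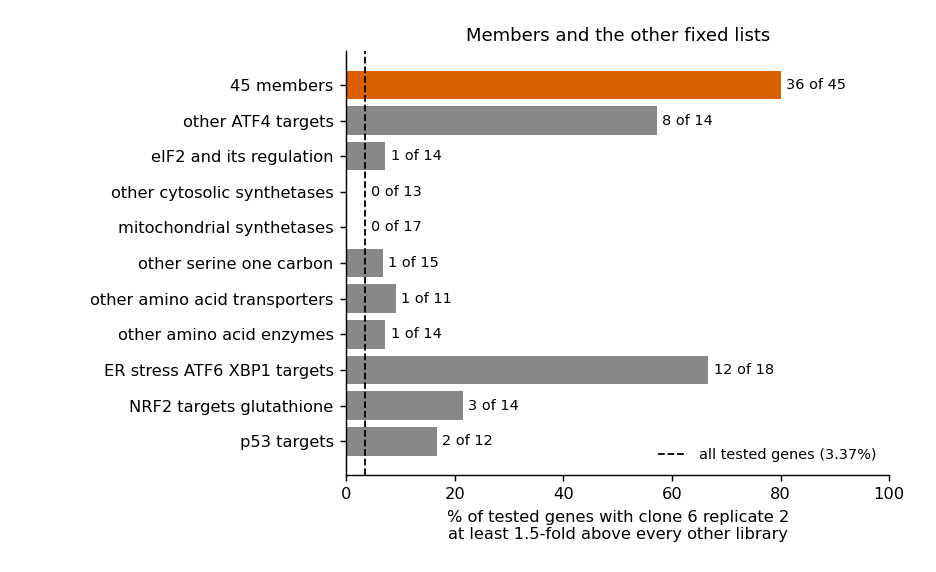
Share of tested genes (percent) in each list whose level in clone 6 replicate 2 was at least 1.5-fold above each of the other 4 libraries; the dashed line marks 3.37%, the share among all tested genes. The members have 80%, the endoplasmic reticulum stress list and the other ATF4 targets follow, and the other cytosolic and the mitochondrial synthetase lists are at 0.

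Members with and without the C/EBP-ATF letters had overlapping ranges of response. The median ratio of clone 6 replicate 2 to the mean of the other 4 libraries was 2.21 in the 17 members with a match (range 1.21 to 7.94) and 2.42 in the 22 without (range 0.929 to 24.5). CHAC1, whose match lies 209 bases before the start, had the highest ratio with a match, and SLC1A5 and BCAT1, with the letters TGATGCAA, had 1.78 and 1.52. DDIT3 had the highest ratio and no match in its window. The 6 members with no entry in the promoter table were SLC7A11, GPT2, PYCR1, PSPH, SHMT2 and NUPR1.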

How the data were processed

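Total RNA of 5 libraries was sequenced on Illumina instruments, per the labels' protocols. Each deposited table holds raw read counts for 1 library; the submitters' processing notes list Trimmomatic, STAR and HTSeq and the build hg19 (GRCh37), with neither version nor role. Which annotation was used, and whether counting was stranded, is not given in the sources used. Each file listed 63677 genes, of which 5772 had an empty value and were treated as not measured, leaving 57905.

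Libraries were grouped by genotype and clone as labelled (2 wild type, 1 clone 2, 2 clone 6). Tests were run with edgeR 4.0.16 in R 4.3.3: the default low-count filter by clone group kept 16471 genes, libraries were scaled by TMM, and the quasi-likelihood F test was used with Benjamini-Hochberg adjustment over all tested genes and a threshold of 0.05. Residual degrees of freedom were 3 for the genotype and 2 for the clones. The SE of a log2 fold change was derived from the test, as its absolute value divided by the square root of the F statistic. CPM were computed on the scaled library sizes, and ratios are of CPM. Clone 6 replicate 2 was set against the other 4 libraries by counting genes at least 1.5-fold outside their range. Ratios of 2 libraries carry 95% exact binomial intervals on the read counts, and floors are of 3 reads; both cover counting error only.

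The members, the 18 gene lists and the comparison of clone 6 replicate 2 were chosen with earlier results of these data known. Members called in the genotype comparison, or at least 2-fold outside the range in clone 6 replicate 2, are given library by library, and the others mostly by range; from each other list up to 4 called genes and up to 4 with the largest ratio could be named; 1 gene that meets this rule is not reported here. Alternatives were another normalization, no filter or a filter of 1 CPM in 2 libraries, DESeq2 1.42.0, a ribosomal RNA covariate, the replicate number as a block, clone 2 and clone 6 replicate 1 summed, and leaving out each library. Promoter sequences are from RefSeq (GRCh38.p14), and overlaps of genes were read from GENCODE 29.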

Additional observations from a re-analysis of the deposited data

How the results depend on the processing

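The genotype comparison called 2822 genes, against 4274 without the low-count filter and 1528 with clone 2 and clone 6 replicate 1 summed. Leaving out 1 library each gave 500 to 5971. Members called higher were 3, against 31 without the filter, 6 by DESeq2 and 0 to 13 with 1 library left out (13 without clone 6 replicate 2, and 0 or 1 without wild-type replicate 1 or 2). Members called lower were 0, against 1 without the filter and 0 to 7 with 1 library left out. Clone 2 against wild type called 628 genes, 1878 without the filter and 175 to 3510 with 1 library left out; members higher were 0, against 5 without the filter, 2 by DESeq2 and 0 to 8, and lower 0, against 2 without the filter, 1 by DESeq2 and 0 to 4. Clone 6 against wild type called 1479 genes, 3144 without the filter and 329 to 5119; members higher were 4, against 32, 9 by DESeq2 and 0 to 41 (41 without clone 6 replicate 1, and 0 or 2 without wild-type replicate 1 or 2), and lower 0, against 1 and 0 to 3. Clone 6 against clone 2 called 0 genes, 99 without the filter, 2 by DESeq2 and 0 to 872 with 1 library left out; members higher were 0, against 19 without the filter and 0 to 38. The total of all genes called shifted between these settings too, and most of these member counts have no share of all genes by direction beside them. They describe the processing and are no result about the set. The cause of these shifts was not tested. At 2-fold in place of 1.5-fold, 21 members stood above the range in clone 6 replicate 2, with 1.2% of all genes above and 2.83% below it.

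The replicate numbers are given in the labels but only 2 pairs share them, and they are a number only. Across 9952 genes, the differences of replicate 2 from replicate 1 in the wild type and in clone 6 had a Pearson correlation of 0.26. With the replicate number as a block the genotype comparison called 4499 genes, with 24 members higher and 1 lower, and clone 6 against wild type called 2569 genes with 24 members higher. Without the block the totals were 2822 and 1479 genes. No share of all genes by direction was taken with the block, so its member counts are no result about the set.

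Log2 fold changes of the genotype in 9 members changed sign only without clone 6 replicate 2, and with 1 library left out they ranged as follows: ATF4 -0.12 to 0.67, TRIB3 -0.13 to 2.10, ATF3 -0.026 to 2.64, CEBPB -0.42 to 0.91, PPP1R15A -0.052 to 1.95, EIF2AK3 -0.0090 to 0.44, AARS -0.25 to 0.67, SHMT2 -0.016 to 0.58 and BCAT1 -0.099 to 0.28. In 4 members the sign changed without clone 6 replicate 2 and also without wild-type replicate 1: SLC7A11 -0.65 to 0.48, SLC3A2 -0.42 to 0.44, JDP2 -0.63 to 0.34 and ALDH18A1 -0.060 to 0.055. With the ribosomal RNA covariate SLC7A11 had -0.022 and JDP2 -0.086. SLC7A5 and TARS, negative with all libraries, ranged over -0.44 to 0.16 and -0.22 to 0.18 with 1 library left out, and were 0.14 and 0.078 with clone 2 and clone 6 replicate 1 summed and 0.019 and 0.058 with the replicate block. Residual degrees of freedom were 3 or fewer and the wild type had 2 libraries, which limits the precision of every spread, and NUPR1 had 6 to 9 reads per library outside clone 6 replicate 2.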

Other observations

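Genes of the NRF2 response to oxidants and of glutathione metabolism, of which SLC7A11 is also a well-known target, were raised in part in clone 6 replicate 2. Of 14 tested, 3 were at least 1.5-fold above each other library, against 3.37% of all tested genes. The median ratio of the 14 to the mean of the other 4 libraries was 1.36. HMOX1, the inducible heme oxygenase, had 10.2, 12.9, 6.97, 5.74 and 64.9 CPM, with clone 2 and clone 6 replicate 1 below the wild-type pair. OSGIN1, a growth inhibitor induced by oxidants, had 2.13, 4.02, 5.74, 5.51 and 18.4 CPM, and TXNRD1, the cytosolic thioredoxin reductase, had 409.8, 567, 670.3, 627 and 1086 CPM. SRXN1, which reduces oxidized peroxiredoxins, had 0.878, 0.990, 0.387, 1.68 and 2.44 CPM, and its level in clone 6 replicate 2 was 1.45 times the next. In the genotype comparison PGD and TALDO1, enzymes of the pentose phosphate pathway, were higher by log2 fold changes of 0.95 and 0.43 (edgeR adjusted p = 0.00281 and 0.0263), and neither was raised 1.5-fold over the other libraries in clone 6 replicate 2.

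Of 12 p53 targets, 2 were at least 1.5-fold above each other library in clone 6 replicate 2, against 3.37% of all tested genes. Only 3 of the 12 had their highest level there, against 28.3% of all tested genes. The median ratio of the 12 to the mean of the other 4 libraries was 1.02. GADD45A, which ATF4 also induces, had 46.1, 111, 62.4, 60.2 and 265 CPM, and its wild-type pair differed in the same direction as that of PPP1R15A. BBC3, a pro-apoptotic BH3 protein gene that CHOP also acts on, had 7.63, 6.99, 4.13, 6.82 and 11.6 CPM. CDKN1A, the cell cycle inhibitor p21, was higher in the edited libraries by a log2 fold change of 0.65, and the death receptor gene FAS had -2.06 (edgeR adjusted p = 0.0117 and 0.00505).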
